A study of Homo sapiens with 14 samples.

Results

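The genes described here encode the 7 inhibitors of cyclin-dependent kinases (CDKs) of the INK4 and CIP/KIP families. They were chosen by name: CDKN1A, CDKN1B and CDKN1C (CIP/KIP) and CDKN2A, CDKN2B, CDKN2C and CDKN2D (INK4). All 7 were among the 54628 gene symbols counted in each of 14 libraries, and all 7 were among the 19126 genes that passed the filter on low counts and were tested. INK4 proteins bind CDK4 and CDK6 and keep them from pairing with D-type cyclins. CIP/KIP proteins bind assembled cyclin-CDK complexes, above all those of CDK2. With active CDKs, the retinoblastoma protein RB1 is phosphorylated and E2F factors transcribe the genes of DNA replication and mitosis. In senescent fibroblasts, CDKN1A (p21) and CDKN2A (p16INK4a) are the members most often used as markers of a lasting arrest.

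The cells were IMR90, an established line of human lung fibroblasts, at passage 5. The untreated group (WT, 2 libraries) had no drug and no knockdown. The siHMGB2 group (2 libraries) was also untreated and had the chromatin protein HMGB2 knocked down by siRNA. All other cells were treated for up to 6 days with inflachromene (ICM) at 10 µM to induce senescence; this small molecule is known to bind HMGB1 and HMGB2. They were ICM cells with no knockdown (4 libraries, ICM 1 to ICM 4) and ICM cells with a knockdown of SRRM2, a scaffold of nuclear speckles, of BANF1, a nuclear envelope and chromatin protein, or of CTCF, the insulator protein (siSRRM2, siBANF1 and siCTCF, 2 libraries each). The labels name 2 isolates of the line without tying them to libraries, and a group given a control siRNA was not analysed here. Nothing states that replicates came from separate cultures, so p-values measure the spread between these libraries, which may be technical. The labels of ICM 3, ICM 4 and both siCTCF libraries differ in form from the other 10, with a running number in the name of the cell line. These 4 libraries are called the second set and the other 10 the first, and siCTCF was compared with ICM 3-4, siSRRM2 and siBANF1 with ICM 1-2. Untreated cells are only in the first set, so the effects of drug and set cannot be told apart when ICM 3-4 are compared with WT.

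Gene counts per library ran from 22336161 to 58257456. The share of small RNA genes was 3.19% to 6.06% in the 6 ICM-treated libraries of the first set and 0.00522% to 0.00835% in the other 8, so in ICM 1-2 against WT it moves with the treatment. Reads given to no gene moved likewise, at 17.49% and 17.94% in WT, 35.24% and 26.5% in ICM 1-2 and 13.11% and 14.3% in ICM 3-4. The ambiguous share was 1.72% and 1.62% in WT, 4.43% and 6.73% in ICM 1-2 and 1.91% and 1.81% in ICM 3-4. The part of these shares in the results of ICM 1-2 against WT and between the ICM pairs was not tested. HMGB2 lay at 27.7 and 28.0 CPM (counts scaled to the library's total of gene counts) in WT and at 3.18 and 3.52 in siHMGB2, and CTCF at 94.9 and 91.9 in ICM 3-4 and at 71.5 and 23.0 in siCTCF. SRRM2 was lowest in the libraries labelled siBANF1 (59.0 and 17 CPM), against 76.1 and 76.4 in those labelled siSRRM2 and 238 and 112 in ICM 1-2. BANF1 itself had 17 and 36.7 CPM under the siBANF1 label and 13.5 and 32.7 in ICM 1-2, so that label is not borne out by its gene, and both labels are named as such below. All 12 fibroblast markers reached 1 CPM in every group. Their summed level was 21414 to 28347 CPM in WT, 4447.8 to 13941 in ICM 1-2 and 2347.4 to 4770.5 in ICM 3-4. Epithelial markers summed to at most 1.21 CPM and blood markers to at most 13.2. Endothelial markers summed to 75.1 to 89.7 CPM in WT, 68.4 to 244 in ICM 1-2 and 2.96 to 16.2 in ICM 3-4, most of it TEK. KDR was at 6.11 and 6.36 CPM in WT, 1 and 0.24 in ICM 1-2 and 0.46 and 0 in ICM 3-4, and VWF did not exceed 1.63 CPM in any library, while PECAM1 did not exceed 0.135 CPM and CDH5 was at 0 in 12 of 14 libraries. In bulk RNA, fewer cells of a type and less RNA per cell cannot be told apart.

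The promoters of 3 members are shown first: CDKN1A and CDKN2D, called higher in ICM 3-4 than in WT, and CDKN2B, whose level was highest in siHMGB2 and the libraries labelled siSRRM2. For CDKN1C, the member that fell most, the RefSeq promoter set used here held 0 windows, so its promoter is not shown. The sequences are from RefSeq (GRCh38.p14), read 5′ to 3′ on the gene's strand. Each starts 250 bases before a transcript start and ends before the first base met that is annotated as exon. The CDKN1A window lies inside the gene's span (chr6:36676463-36687332), so that transcript start is not the gene's first. Capitals mark the GC box, GGGCGG on either strand, the letters of a typical SP1 site.
CDKN1A, chr6:36678464-36678657, plus strand: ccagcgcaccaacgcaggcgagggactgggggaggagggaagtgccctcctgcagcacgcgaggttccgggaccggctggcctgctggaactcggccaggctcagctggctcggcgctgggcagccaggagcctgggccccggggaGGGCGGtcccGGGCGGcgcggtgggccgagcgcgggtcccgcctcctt
CDKN2B, chr9:22009364-22009555, minus strand: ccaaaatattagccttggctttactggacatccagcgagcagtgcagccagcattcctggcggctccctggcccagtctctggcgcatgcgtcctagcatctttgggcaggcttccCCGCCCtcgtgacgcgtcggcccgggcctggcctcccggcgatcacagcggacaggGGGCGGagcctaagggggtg
CDKN2D, chr19:10569060-10569229, minus strand: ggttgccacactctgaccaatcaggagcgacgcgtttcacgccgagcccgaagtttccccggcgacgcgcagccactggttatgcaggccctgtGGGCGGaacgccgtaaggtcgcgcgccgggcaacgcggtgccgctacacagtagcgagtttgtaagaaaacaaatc
The CDKN1A and CDKN2B windows held 2 GC boxes each and the CDKN2D window held 1. Among 35116 promoter windows of the same length, 33.8%, 33.4% and 29.5% held at least 1. CCAAT was found once, in CDKN2D, and is in 22.0% of windows of that length. TATAAA, the E box CACGTG and the E2F letters TTTGGCGC and TTTCGCGC, searched on both strands, were not in these 3 windows. The 56, 58 and 80 bases between the CDKN1A, CDKN2B and CDKN2D windows and the transcript start were cut and not searched. Letters there, TATAAA included, would have been missed. The share of bases that are G or C was 76.8% in CDKN1A, 66.1% in CDKN2B and 62.4% in CDKN2D, with 20, 14 and 21 CpG pairs. The letters are a description of the windows, and the data do not bear on binding there.

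Levels of the family were dominated by CDKN1A in every library. Per kilobase of annotated exon, WT had 395 ± 9.09 CPM of CDKN1A (SD, n = 2) and 17.9 ± 0.148 of CDKN1B, the next gene. CDKN2A (5.38 ± 0.0761) and CDKN2B (4.8 ± 0.295) followed. CDKN2C (2.48 ± 0.233), CDKN2D (2.08 ± 0.565) and CDKN1C (1.49 ± 0.446) came last, and each of these neighbours overlapped the next. The order changed in ICM 3-4, where CDKN2D (9.44 ± 0.482 CPM per kilobase) came next after CDKN1A (3916 ± 529) and CDKN1B (19.4 ± 1.08). There CDKN2B (5.93 ± 2.11) and CDKN2A (3.72 ± 2.32) overlapped, and CDKN1C (0.0571 ± 0.00918) was last. In the libraries labelled siSRRM2, CDKN2B (13.6 ± 0.209 CPM per kilobase) stood above CDKN1B (11.8 ± 0.0385), and the values did not overlap.

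**Figure D1:**
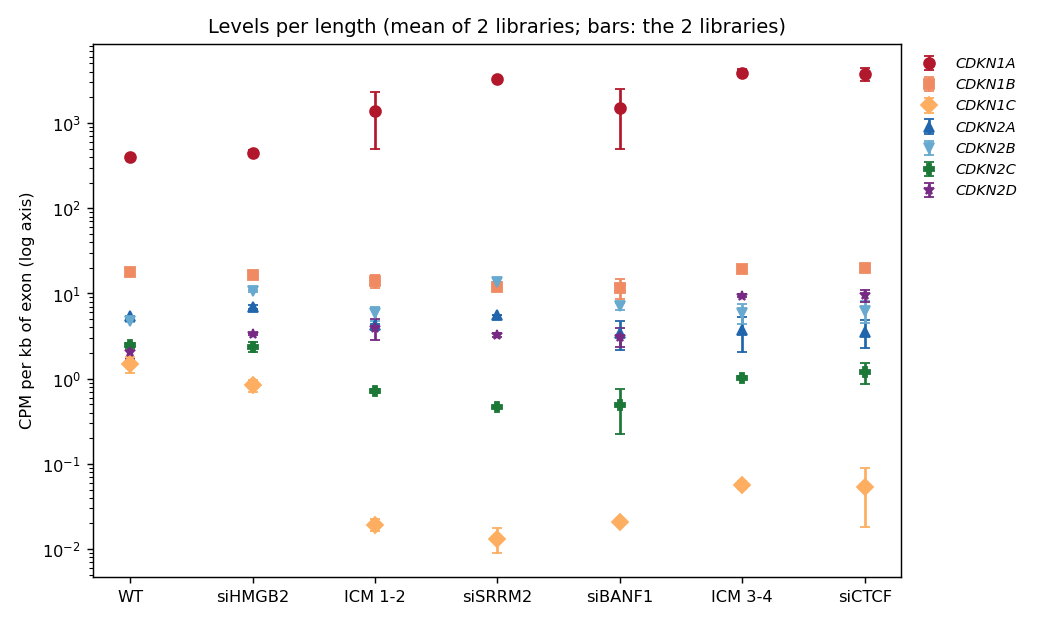
Mean level of each gene per group in CPM per kilobase of exon, on a log axis, with bars reaching to the 2 libraries of the group. CDKN1A is highest in all 7 groups, and CDKN1C is lowest in all 7, near 1.49 in WT and 0.0571 in ICM 3-4.

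CDKN1A, the p53 target p21, varied 11.3-fold over the libraries. It lay at 1186 and 1225 CPM in WT, 1281 and 1468 in siHMGB2, 1529 and 6974 in ICM 1 and ICM 2, 10803 and 13084 in ICM 3 and ICM 4, and 9606 and 13422 in siCTCF. The libraries labelled siSRRM2 had 9957 and 10317 CPM, and those labelled siBANF1 had 1520 and 7743. ICM 1 and siBANF1 1 were thus close to untreated cells, and the other 8 ICM-treated libraries were all far above them. CDKN1A took 90.4% to 92.0% of the summed CPM of the 7 genes in WT and siHMGB2, and 95.2% to 99.1% in the ICM-treated libraries. Among protein-coding genes it ranked 76 and 65 in WT, 52 and 3 in ICM 1 and ICM 2, 1 in both libraries labelled siSRRM2, and 3 in all 4 libraries of the second set.

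In ICM 3-4 CDKN1A was 8.36-fold higher than in WT (log2 fold change 3.06, SE 0.73; adjusted p = 0.0127 by edgeR's quasi-likelihood test). In ICM 1-2 the log2 fold change was 1.64 with SE 0.69, which did not pass (edgeR adjusted p = 0.139), although the arms did not overlap. It passed with DESeq2 (1.67, adjusted p = 0.0483) and in edgeR with no filter beyond 1 count (1.65, adjusted p = 0.000804). The value rested on single libraries. Without ICM 1 the log2 fold change was 2.33 (edgeR adjusted p = 0.0321), and without ICM 2 it was 0.26 (adjusted p = 0.845). Between ICM 3-4 and ICM 1-2 the difference was 1.43 on the log2 scale (SE 0.69, edgeR adjusted p = 0.162), and 2.81 without ICM 2 (adjusted p = 0.0205). It passed with no filter beyond 1 count (1.39, edgeR adjusted p = 0.00502). The ICM 3-4 call was lost without WT 1 (adjusted p = 0.0831), WT 2 (0.089) or ICM 4 (0.0527), with values from 2.99 to 3.07. The gene lies at chr6:36676463-36687332 (GRCh38.p14), and 4.8% of its exon bases overlap the opposite-strand gene DINOL. Whether reads were counted by strand is not given in the sources used here, so reads in that stretch cannot be assigned between them.

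CDKN1B, p27, which holds CDK2 inactive in resting cells, moved little. It lay at 50.7 and 50.1 CPM in WT, 51.7 and 41.8 in siHMGB2, 32.3 and 46.2 in ICM 1-2, 52.4 and 56.7 in ICM 3-4, and 51.2 and 60.0 in siCTCF. Libraries labelled siSRRM2 had 33.3 and 33.2 CPM and those labelled siBANF1 24.2 and 41.4. No comparison called it in the fit to all libraries. Its log2 fold change was -0.51 in ICM 1-2 against WT (SE 0.24, 95% interval -1.04 to 0.03) and -0.13 in ICM 3-4 (SE 0.24, interval -0.66 to 0.40). In CPM, ICM 3-4 lay above WT without overlap, and the sign of the fitted value turned to 0.11 when scaled by total counts. The gene is at chr12:12717368-12722369.

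CDKN1C, p57, a maternally expressed imprinted inhibitor, was the member that fell most. WT held 150 and 106 counts (4.47 and 2.91 CPM) and siHMGB2 held 65 and 99 (1.75 and 2.40 CPM). Every ICM-treated library held 1 to 6 counts, between 0.02 and 0.22 CPM. The untreated and the ICM-treated libraries did not overlap. Pooled over 2 libraries, ICM 1-2 held 5 counts against 256 in WT, a level 75.4-fold lower (95% Clopper-Pearson interval 31.9 to 234). ICM 3-4 held 7, a level 25.7-fold lower (12.3 to 64.7). These intervals cover counting error only. Both calls passed, with edgeR adjusted p = 0.000588 in ICM 1-2 and 0.00105 in ICM 3-4. Calls for CDKN1C held with each library left out, and in the fit to ICM 1-2 and WT alone, which called 0% of its genes, the adjusted p was 0.0757. The siHMGB2 level was 0.573 of WT by counts (0.468 to 0.700), and the log2 fold change of -0.77 (SE 0.52, edgeR adjusted p = 1.00) did not pass. The gene is at chr11:2883218-2885775.

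**Figure D2:**
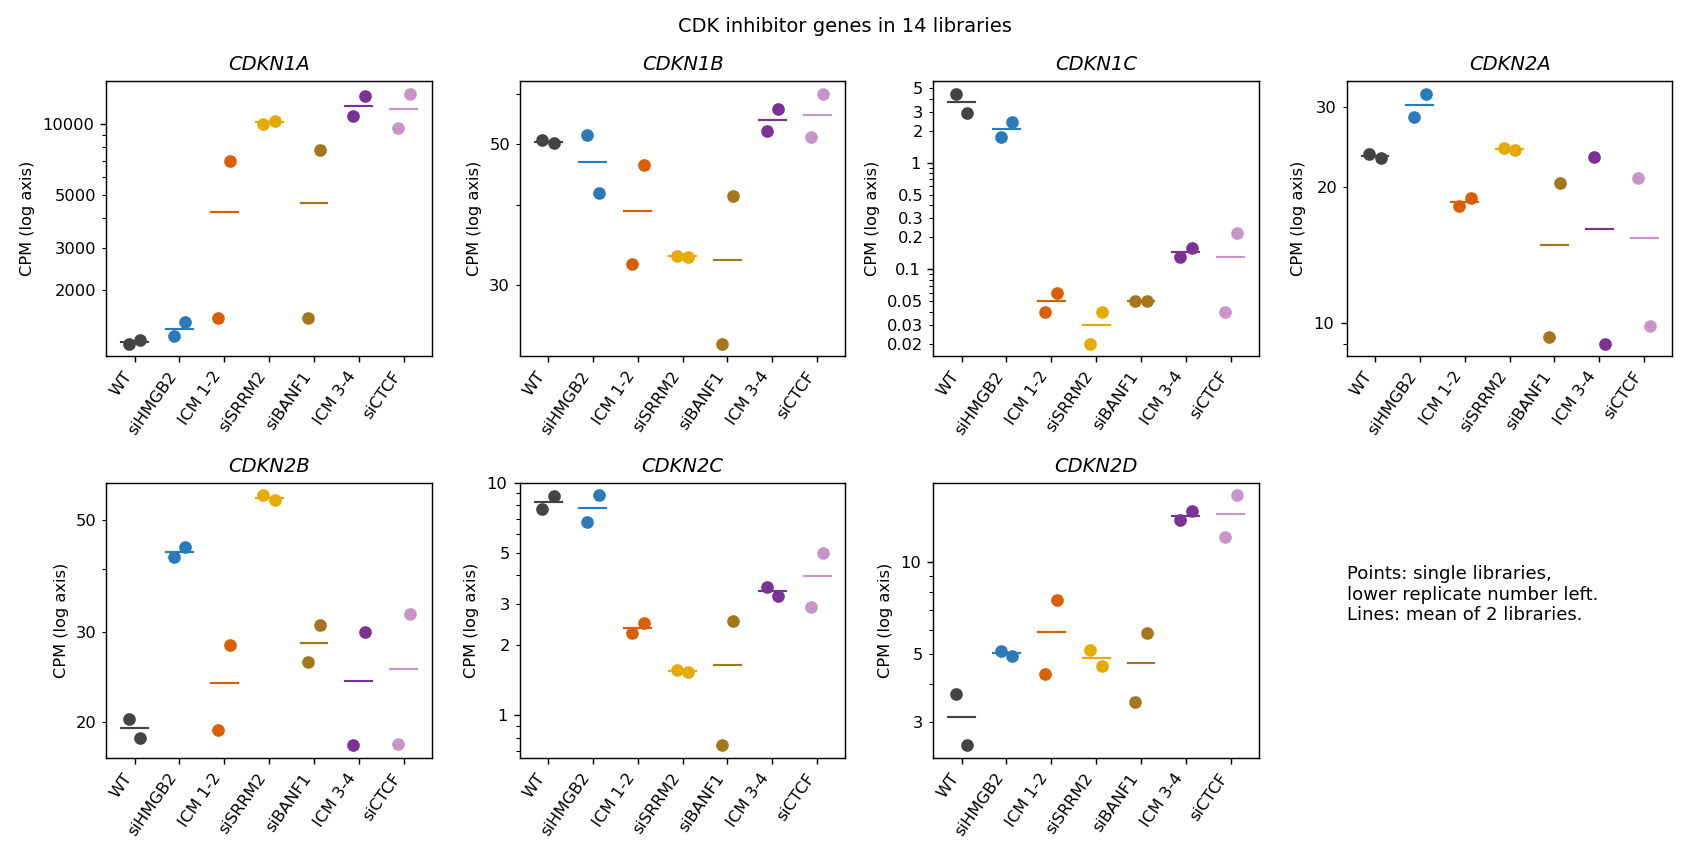
CPM of each gene in each of the 14 libraries, on a log axis for each gene, by group (points are libraries, the lower replicate number on the left, and lines are group means). CDKN1C is at or below 0.22 CPM in all 10 ICM-treated libraries, and ICM 1 and siBANF1 1 lie at 1529 and 1520 CPM for CDKN1A, below their partners.

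CDKN2A, which encodes p16INK4a and, from another promoter and reading frame, p14ARF, did not pass in any comparison in the fit to all libraries. Its count joins both transcripts, so the values are for the gene. It lay at 23.5 and 23.1 CPM in WT, 28.5 and 32.1 in siHMGB2, 18.2 and 18.9 in ICM 1-2, 23.2 and 8.99 in ICM 3 and ICM 4, and 20.9 and 9.82 in siCTCF. The libraries labelled siSRRM2 had 24.3 and 24.1 CPM, and those labelled siBANF1 had 9.31 and 20.3. No ICM-treated library exceeded 24.3 CPM, and 3 were below 10 CPM. The log2 fold change against WT was -0.47 in ICM 1-2 (SE 0.49, 95% interval -1.56 to 0.62, edgeR adjusted p = 0.55) and -0.75 in ICM 3-4 (SE 0.5, interval -1.84 to 0.35, adjusted p = 0.267). A rise of more than 0.62 on the log2 scale lies outside both intervals. In siHMGB2 it was 0.43 (SE 0.49, edgeR adjusted p = 1.00) with no overlap between the arms. CDKN2A lies at chr9:21967752-21995324, and 7.9% of its exon bases overlap the opposite-strand gene CDKN2B-AS1, which was at 0.358 to 1.82 CPM.

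CDKN2B, p15INK4b, a gene next to CDKN2A at chr9:22002903-22009313, had the largest fold change of the members in siHMGB2. It lay at 20.3 and 18.6 CPM in WT, 42.3 and 44.1 in siHMGB2, 19.3 and 28.4 in ICM 1-2, 18.0 and 30.1 in ICM 3-4, and 18.1 and 32.7 in siCTCF. Libraries labelled siSRRM2 had 55.8 and 54.6 CPM and those labelled siBANF1 26.2 and 31.0. The siHMGB2 pair and the pair labelled siSRRM2 lay above every other library. In siHMGB2 the level was 2.30-fold that of WT (log2 fold change 1.2, SE 0.29, 95% interval 0.55 to 1.85). Its unadjusted p was 0.00186 and the edgeR adjusted p 0.591 in the fit to all libraries. In the fit to WT and siHMGB2 alone the value was 1.21 (adjusted p = 0.000108), and DESeq2 also called it (adjusted p = 0.0269). Between the libraries labelled siSRRM2 and ICM 1-2 the log2 difference was 1.22 (SE 0.29, edgeR adjusted p = 0.149), with DESeq2 calling it at adjusted p = 0.00598.

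The ratio of CDKN2B to CDKN2A CPM did not set these pairs apart from all other libraries. It was 0.863 and 0.807 in WT and 1.48 and 1.37 in siHMGB2. ICM 1 and ICM 2 had 1.06 and 1.5, and the libraries labelled siSRRM2 had 2.30 and 2.27. Those labelled siBANF1 had 2.82 and 1.52. In the second set it was 0.775 in ICM 3 and 0.867 in siCTCF 1 but 3.35 in ICM 4 and 3.33 in siCTCF 2. The 2 libraries of each second-set group thus differed from each other more than the groups did. CDKN2B-AS1 and the neighbouring gene MTAP were not called in any of the 7 comparisons.

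**Figure D3:**
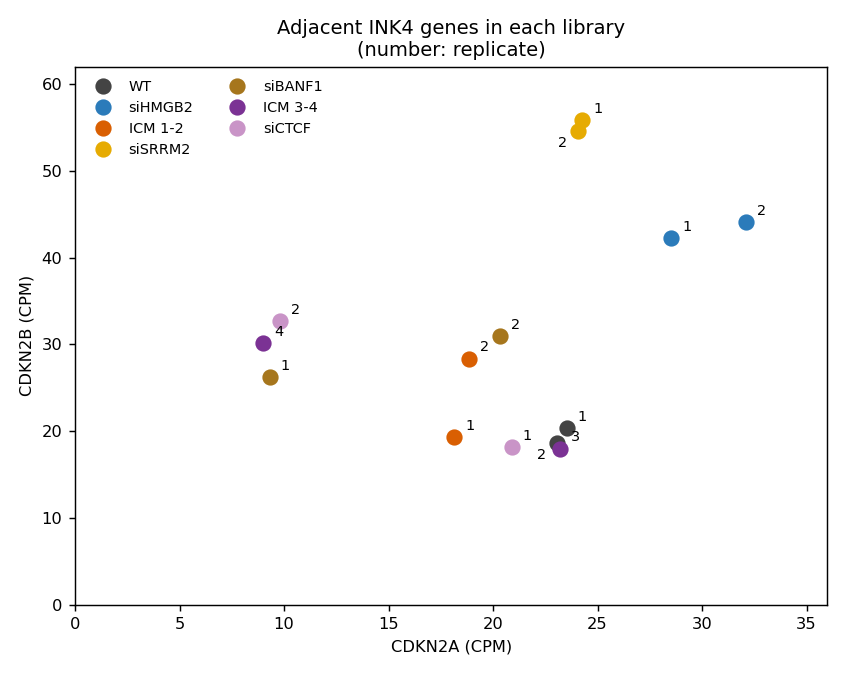
CPM of CDKN2B against CDKN2A in each library, coloured by group and numbered by replicate. The siHMGB2 pair (42.3 and 44.1 CPM of CDKN2B) and the pair labelled siSRRM2 (55.8 and 54.6) stand above the rest, and ICM 4 and siCTCF 2 pair a low CDKN2A with about 30.1 to 32.7 CPM of CDKN2B.

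CDKN2C, p18INK4c, was lower in ICM-treated cells. It lay at 7.69 and 8.78 CPM in WT, 6.81 and 8.84 in siHMGB2, 2.25 and 2.49 in ICM 1-2, 3.56 and 3.27 in ICM 3-4, and 2.91 and 5.00 in siCTCF. The libraries labelled siSRRM2 had 1.57 and 1.54 CPM and those labelled siBANF1 0.735 and 2.54. All 10 ICM-treated libraries lay below the 4 untreated ones. The level was 3.81-fold lower than WT in ICM 1-2 (log2 fold change -1.93, SE 0.47, edgeR adjusted p = 0.025) and 2.84-fold lower in ICM 3-4 (-1.51, SE 0.47, adjusted p = 0.0344). Each of these calls was lost with any 1 of its 4 libraries (WT 1, WT 2 and both ICM libraries) left out, at adjusted p from 0.0544 to 0.128 in ICM 1-2 and from 0.1 to 0.166 in ICM 3-4. The ICM 1-2 call was also lost in the fit to ICM 1-2 and WT alone (edgeR adjusted p = 0.105), and the ICM 3-4 call when scaled by total counts (-1.27, adjusted p = 0.0735). CDKN2C is at chr1:50960745-50974634.

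CDKN2D, p19INK4d, rose in the second set. It lay at 3.72 and 2.52 CPM in WT, 5.14 and 4.93 in siHMGB2, 4.30 and 7.54 in ICM 1-2, 13.7 and 14.7 in ICM 3-4, and 12.1 and 16.5 in siCTCF. Libraries labelled siSRRM2 had 5.17 and 4.59 CPM and those labelled siBANF1 3.50 and 5.87. The 4 libraries of the second set were above all 10 others. Against WT the level was 3.84-fold higher in ICM 3-4 (log2 fold change 1.94, SE 0.35, edgeR adjusted p = 0.00374), and this call held with each library left out (adjusted p at most 0.0498). In ICM 1-2 the log2 fold change was 0.77 (SE 0.34, edgeR adjusted p = 0.153). The difference between the 2 pairs of ICM libraries passed, at 1.17 on the log2 scale (SE 0.34, edgeR adjusted p = 0.035). That call was lost without ICM 1 (0.87, adjusted p = 0.202), ICM 3 (1.17, adjusted p = 0.135) or ICM 4 (1.2, adjusted p = 0.114), and in the fit to those 4 libraries alone (1.13, adjusted p = 0.218), which called 0.84% of its genes. It was lost too with no filter beyond 1 count (1.15, edgeR adjusted p = 0.0836). The gene is at chr19:10566460-10568979.

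By comparison, the counts of members called were as follows. In ICM 1-2 against WT, 2 of 7 members were called lower (CDKN1C and CDKN2C) and 0 higher, where 6.86% of all 19126 genes were called lower and 6.63% higher. Members without overlap of the arms were 4 lower and 2 higher, where 25% and 32.3% of all genes were. The median log2 fold change of the members was -0.47, against 0.10 over all genes tested. In ICM 3-4 against WT, 2 members were called higher (CDKN1A and CDKN2D) and 2 lower (CDKN1C and CDKN2C), where 14.3% and 16% of all genes were. There 3 members were higher and 2 lower without overlap (42.6% and 33.3% of all genes), and the median was -0.13 against -0.02. Both comparisons use the same WT libraries. Scaling by total counts moved the median of all genes to 0.24 and 0.18, and the split of all calls from 1268 higher and 1312 lower to 1481 and 1130 in ICM 1-2, and from 2732 and 3064 to 3448 and 2449 in ICM 3-4. Between ICM 3-4 and ICM 1-2, 1 member was called higher (CDKN2D) and 0 lower, where 8.53% and 11% of all genes were. Without overlap, 5 were higher and 0 lower, where 29% and 27.1% of all genes were. The 5 were CDKN1A, CDKN1B, CDKN1C, CDKN2C and CDKN2D. CDKN1C stood there on 7 pooled counts against 5, a ratio of 2.93 (95% Clopper-Pearson interval 0.8 to 11.7), so counting error alone covers no difference.

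**Figure D4:**
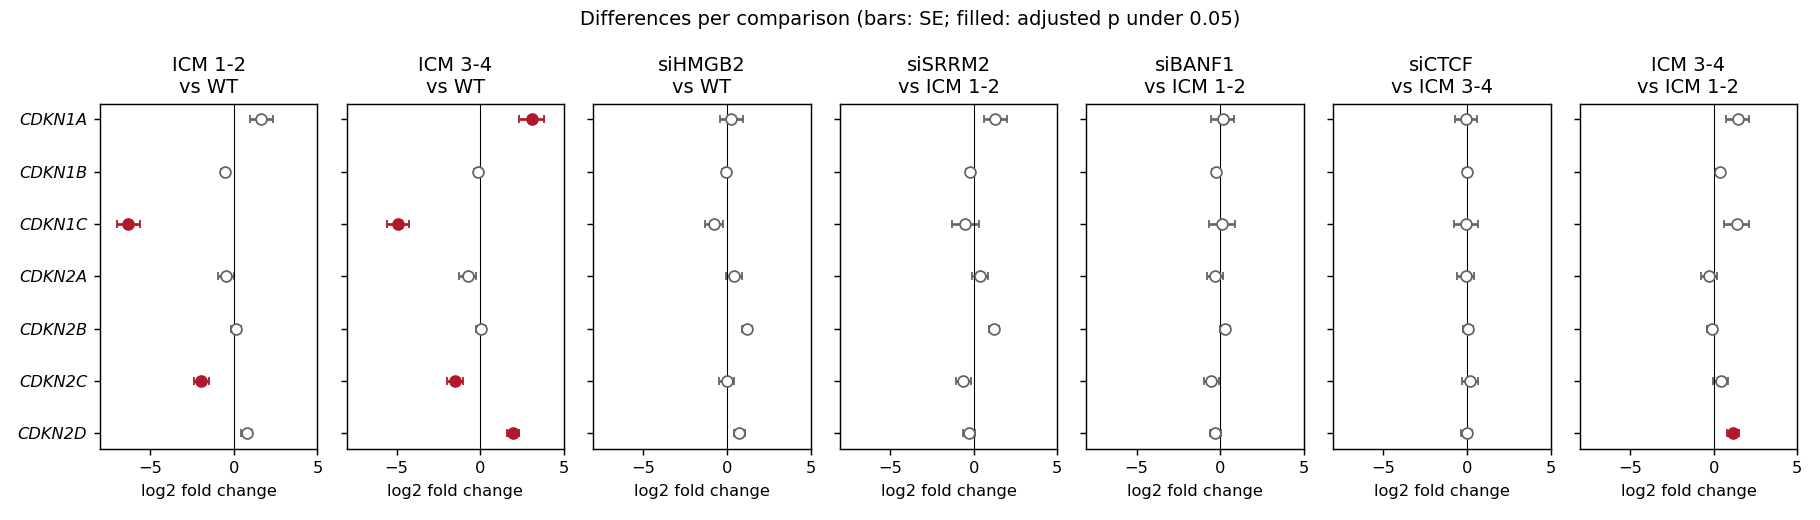
Log2 fold change of each gene in the 7 comparisons, with SE bars, filled where the edgeR adjusted p is under 0.05. The filled points are CDKN1C and CDKN2C below 0 in both ICM comparisons with WT, CDKN1A (3.06) and CDKN2D (1.94) above 0 in ICM 3-4, and CDKN2D (1.17) between the 2 ICM pairs.

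In the edgeR fit to all libraries, 0 of 7 members were called in each knockdown comparison. For siHMGB2 against WT, edgeR called 0% of all genes, with 908 genes at an unadjusted p under 0.05, and DESeq2 called 74 genes (0.438%). The fit to WT and siHMGB2 alone called 10.9% of its genes, with CDKN2B among them. There 4 members were higher and 1 lower without overlap (19.7% and 29.3% of all genes). The libraries labelled siSRRM2 called 0.178% of all genes against ICM 1-2, with 2168 genes at an unadjusted p under 0.05 and 727 by DESeq2 (4.95%), and 3 members were higher and 1 lower without overlap (20.5% and 21% of all genes). CDKN1A there had a log2 difference of 1.30 (SE 0.69, edgeR adjusted p = 0.512), 0.61 without ICM 1 and 2.69 without ICM 2, and it passed with no filter beyond 1 count (1.3, edgeR adjusted p = 0.0443). For the libraries labelled siBANF1, edgeR called 0% (591 genes at an unadjusted p under 0.05, 24 by DESeq2). All 7 members overlapped ICM 1-2, and 14.5% of all genes did not. Both the fit and the overlap take these libraries as unpaired. Same-numbered libraries of the 2 groups deviated together (correlation 0.85), so shifts within pairs can be hidden. For siCTCF against ICM 3-4, edgeR called 0% (125 genes at an unadjusted p under 0.05, 0 by DESeq2), and all 7 members overlapped again, where 17.1% of all genes did not. The 95% interval for CDKN1A in siCTCF ran from -1.55 to 1.44 on the log2 scale and that for CDKN2B from -0.57 to 0.72. Changes within these intervals remained compatible with the data. The width of the intervals comes from a spread shared by all 7 groups, not from siCTCF and ICM 3-4 alone. For CDKN1A the 2 libraries of a group differed 4.56-fold in ICM 1-2 and 5.09-fold under the siBANF1 label. They differed 1.21-fold in ICM 3-4 and 1.4-fold in siCTCF. The intervals too come from the unpaired fit, although siCTCF and ICM 3-4, matched lower with lower number, deviated together (correlation 0.74). The median log2 fold changes of the members were 0.25 in siHMGB2, -0.23 under the siSRRM2 and siBANF1 labels and 0.00 in siCTCF, against 0.00, -0.10, 0.03 and -0.01 over all genes.

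The cyclins, kinases, pocket proteins and E2F factors that the inhibitors act on or through were also read, as a list of 30 genes of which 29 were tested. In ICM 1-2 against WT 10 were lower and 2 higher, where 6.86% and 6.63% of all genes were. In ICM 3-4 against WT 14 were lower and 1 higher, where 16% and 14.3% of all genes were. The median log2 fold changes were -0.63 and -1.02, against 0.10 and -0.02 over all genes. CDK1, the mitotic kinase, went from 17.8 ± 0.491 CPM in WT (n = 2) to 0.214 ± 0.0161 in ICM 1-2 and 0.119 ± 0.11 in ICM 3-4 (log2 fold change -6.49 and -7.41, edgeR adjusted p = 4.59e-05 and 8.72e-05). CCNA2, the S and G2 phase cyclin, had log2 fold changes of -2.79 and -3.29, and CCNB2, a mitotic cyclin, of -2.59 and -3.19. E2F5, a repressor-class factor, had -2.53 in ICM 3-4. In the fit to all libraries no gene of the list was called by edgeR in the 4 knockdown comparisons. The fit to WT and siHMGB2 alone called 4 higher and 0 lower in siHMGB2, where 10.9% of its genes were called in either direction. With 1 of WT 1, WT 2 and the 2 ICM libraries left out, 4 to 10 genes were lower in ICM 1-2 and 7 to 10 in ICM 3-4, and the fit to ICM 1-2 and WT alone called 0 (CDK1 there: -6.40, edgeR adjusted p = 0.0539). The calls for CDK1, CCNA2 and E2F5 held with each library left out, while the CCNB2 call in ICM 1-2 was lost without WT 1 (adjusted p = 0.142), WT 2 (0.145) or ICM 1 (0.087), and that in ICM 3-4 without WT 2 (0.0524), ICM 3 (0.0612) or ICM 4 (0.0918).

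Of the D-type cyclins and the kinases that INK4 proteins bind, CCND1, CCND2 and CDK6 differed between the 2 pairs of ICM libraries. CCND3 (log2 difference -0.33, edgeR adjusted p = 0.551) and CDK4 (0.31, edgeR adjusted p = 0.298) were not called there. CCND2 had 131 ± 10.8 CPM in ICM 1-2 against 2.84 ± 0.287 in WT (n = 2, log2 fold change 5.39, edgeR adjusted p = 7.07e-06) and 4.76 ± 0.46 in ICM 3-4. CCND1 lay at 1276 ± 3.90 CPM in ICM 1-2 and 323 ± 65.9 in ICM 3-4, a difference of -2.08 (edgeR adjusted p = 0.00401). CDK6 lay at 443 ± 217 and 83 ± 6.33 CPM, a difference of -2.50 (edgeR adjusted p = 0.00438). RB1 was not called in any comparison. The fit to the 4 ICM libraries alone called only CCND2 of the list and gave adjusted p = 0.0768 for CCND1 and 0.0586 for CDK6, while these 3 calls held with each library left out. In all, 6 genes of the list were lower and 0 higher in ICM 3-4 than in ICM 1-2, where 11% and 8.53% of all genes were. CCND2 (-4.89) and TFDP2 (-1.15) were among them. The median log2 difference of the list was -0.50, against -0.11 over all genes, and was -0.14 without ICM 1 and -0.31 without ICM 2.

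**Figure D5:**
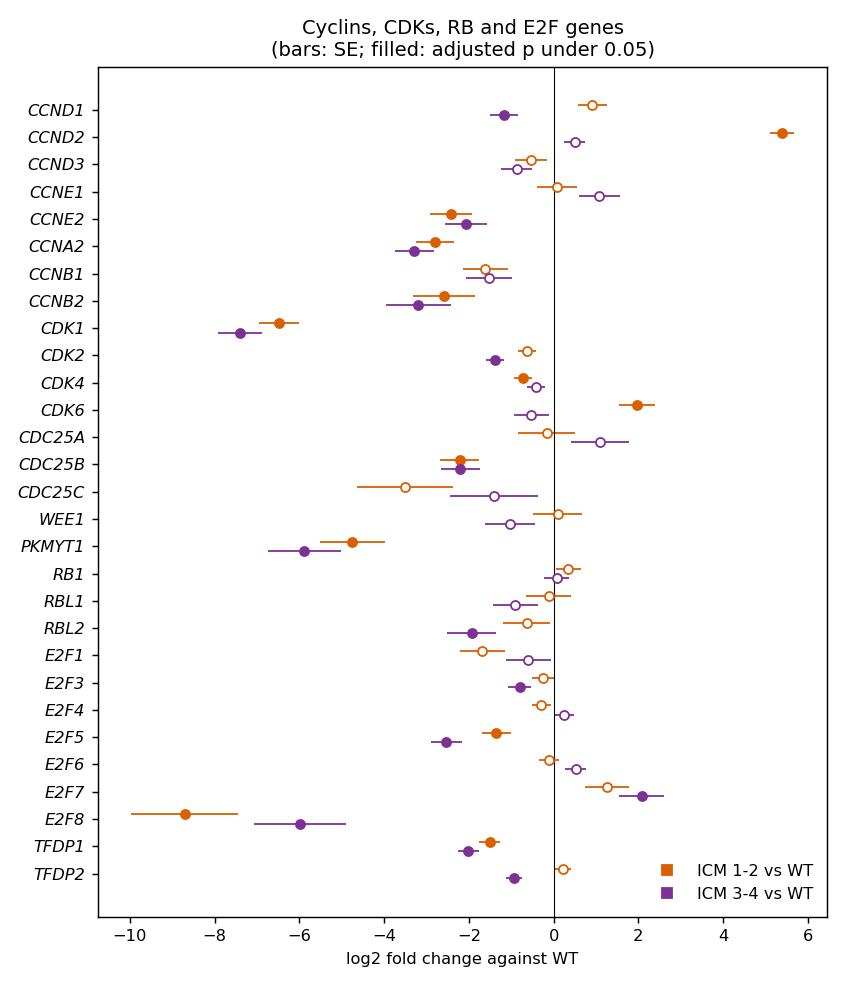
Log2 fold change against WT of the 29 tested cyclin, kinase, pocket protein and E2F genes in ICM 1-2 and ICM 3-4, with SE bars, filled where the edgeR adjusted p is under 0.05. CDK1 lies at -6.49 and -7.41, and the filled points right of 0 are CCND2 (5.39) and CDK6 in ICM 1-2 and E2F7 in ICM 3-4.

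Of 31 known regulators of the members, 29 were tested. In ICM 1-2 against WT 4 were higher and 4 lower, where 6.63% and 6.86% of all genes were. In ICM 3-4 against WT 2 were higher and 4 lower, where 14.3% and 16% of all genes were. The counts in ICM 3-4 thus lie near or below the background, and those in ICM 1-2 lie above it, on 4 genes each. Between the 2 ICM pairs 5 were higher and 4 lower in ICM 3-4 (8.53% and 11% of all genes), which became 9 and 6 without ICM 2, 3 and 1 without ICM 1, 1 and 1 without ICM 3, 3 and 2 without ICM 4, and 0 in the fit to those 4 libraries alone. MDM2, the ubiquitin ligase for p53 and itself a p53 target, rose from 142 ± 10.5 CPM in WT (n = 2) to 763 ± 471 in ICM 1-2 (log2 fold change 2.26, edgeR adjusted p = 0.00835) and 477 ± 153 in ICM 3-4 (1.5, adjusted p = 0.0228). MDM2 was at 430 and 1097 CPM in ICM 1 and ICM 2, so that ICM 1 was the lower library for MDM2 as it was for CDKN1A. The MDM2 call was lost without WT 1 or WT 2 in ICM 1-2 (adjusted p = 0.0863 and 0.0775) and without WT 1, WT 2 or ICM 4 in ICM 3-4 (0.126, 0.114 and 0.133). TGFB1, a ligand known to raise CDKN2B, had a log2 fold change of -2.51 in ICM 1-2 and was 2.82 higher in ICM 3-4 than in ICM 1-2. EZH2, the Polycomb methyltransferase (-1.84), and KLF4, a transcription factor (-2.07), fell in ICM 1-2. SKP2, the ubiquitin ligase subunit that targets CDKN1B protein, fell in ICM 3-4 (-1.42), as did SMAD3 (-2.86) and ETS2 (-1.48). KDM6B, a histone demethylase that opposes Polycomb marks, was 3.20 higher in ICM 3-4 than in ICM 1-2. ETS1, an activator of CDKN2A transcription, was lower in the libraries labelled siSRRM2 (log2 difference -1.31, 56.5 ± 2.15 against 139 ± 1.03 CPM, n = 2, edgeR adjusted p = 0.0405), the only regulator called in a knockdown comparison in the edgeR fit to all libraries. With 1 library left out, the list had 0 to 3 genes higher and 1 to 5 lower in ICM 1-2 against WT, 0 to 2 higher and 0 to 1 lower in ICM 3-4 against WT, and the ETS1 call was lost without ICM 1, siSRRM2 1 or siSRRM2 2. The calls for EZH2 and for TGFB1 between the ICM pairs held with each library left out. Those for TGFB1 in ICM 1-2 were lost without WT 1, WT 2 or ICM 2 (adjusted p = 0.0582 to 0.0639), for KLF4 without WT 2 (0.0509), for SMAD3 without WT 2, ICM 3 or ICM 4 (0.0619 to 0.0888), for KDM6B without ICM 2, ICM 3 or ICM 4 (0.0754 to 0.095), and for SKP2 and ETS2 without any 1 of WT 1, WT 2, ICM 3 and ICM 4 (0.0523 to 0.179). The fit to ICM 1-2 and WT alone called 0 regulators and 0% of all its genes. That to ICM 3-4 and WT alone called 6 higher and 6 lower, where 55.2% of its genes were called in either direction. That to siHMGB2 and WT alone called 3 higher and 3 lower, where 10.9% of its genes were called.

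Of 16 genes close to the members, 12 were tested. In ICM 1-2 against WT 1 was higher and 1 lower (6.63% and 6.86% of all genes), and in ICM 3-4 against WT 0 and 2 (14.3% and 16% of all genes), counts near or below the background. SRSF3, a splicing factor gene near CDKN1A, was lower in both (-1.01 and -1.15). Between the 2 ICM pairs 1 was higher (KRI1, near CDKN2D, by 1.2) and 3 lower, where 8.53% and 11% of all genes were. Among the lower was KCNQ1OT1, the antisense RNA of the imprinted region that holds CDKN1C (-3.25). KCNQ1OT1 was at 91.0 and 11.3 CPM in ICM 1 and ICM 2. With 1 library left out, at most 2 neighbours were called in either direction against WT, and 0 between the ICM pairs except without ICM 2 (1 higher and 3 lower). The SRSF3 call in ICM 1-2 was lost without WT 1, WT 2 or ICM 1, and that in ICM 3-4 without any 1 of its 4 libraries. Of 3 genes with similar symbols, 1 was lower in both ICM comparisons with WT (CDKN3, a phosphatase of CDKs, -2.67 and -2.77), with the calls lost without WT 1, WT 2 or ICM 1 and without WT 1, ICM 3 or ICM 4. CDKN2AIP, whose symbol resembles the members' but which encodes a partner of p14ARF, was 1.78 higher in ICM 3-4 than in WT on the log2 scale (67.7 ± 12.3 against 16.6 ± 2.02 CPM, n = 2, edgeR adjusted p = 0.0226). That call was lost without any 1 of WT 1, WT 2, ICM 3 and ICM 4 (edgeR adjusted p = 0.0667 to 0.141).

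The genes whose levels ran most like each member were sought among 9198 genes by Pearson's r of log2 CPM over the 14 libraries, a description in which the libraries share groups and composition. They were SRA1 (0.991) and MRPL49 (0.990) for CDKN1A, ANP32E (0.942) and GABARAP (0.938) for CDKN1B, SERPINH1 (0.972) and DOK4 (0.960) for CDKN2A, GALNT1 (0.888) and DNAJC21 (0.869) for CDKN2B, and MVB12B (0.980) and MRPS6 (0.975) for CDKN2D. CDKN1C and CDKN2C had a mean under 5 CPM and were not searched. Among the members, r was 0.90 for CDKN1C with CDKN2C, 0.86 for CDKN1B with CDKN2C, 0.72 for CDKN1A with CDKN2D and 0.29 for the adjacent CDKN2A and CDKN2B. The lowest r was -0.68 for CDKN1A with CDKN1C, then -0.45 for CDKN2A with CDKN2D. CDKN1C held 1 to 6 counts in every ICM-treated library, which limits its r.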

How the data were processed

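Each library has 1 deposited file of unnormalized read counts, listed by gene symbol. Per the submitters' processing notes, STAR 2.7.3a, HTSeq 0.12.4, DESeq2 1.36.0 and the build hg38 were used; the strand setting and annotation release are not given in the sources used here. Lines for reads given to no gene (12.75% to 41.78%) were left out. Counts were scaled by TMM and filtered with filterByExpr, and all 14 libraries entered 1 fit of edgeR 4.0.16 in R 4.3.3 (quasi-likelihood F test, 7 group means, 7 residual degrees of freedom). Calls were made where the p-value, adjusted by Benjamini and Hochberg's method over 19126 genes, was under 0.05. The test was checked on simulated data that gave each gene the same spread in all groups. That check does not cover groups that differ in spread. CPM was computed from unadjusted totals. Lengths, overlaps and gene classes are from GENCODE v29 and RefSeq GRCh38.p14. The SE of an edgeR log2 fold change was its absolute value divided by the square root of the F statistic. The 95% intervals of log2 fold changes were built from that SE. Intervals for counts are 95% Clopper-Pearson.

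The members and lists (cell cycle machinery, regulators, neighbours, similarly named genes and cell type markers) were chosen with earlier results of these data known. All members were named. Of each list, at most 4 called genes per comparison with a mean of at least 5 CPM and the largest change were named, and for likeness the 2 genes of highest r among those with at least 10 CPM. RB1, CCND3, CDK4, CDKN2B-AS1, MTAP, CDKN3, the marker genes and the ICM 1 and ICM 2 values of KCNQ1OT1 and MDM2 were added after values were seen. Alternatives were other scalings, filters, DESeq2 1.42.0, protein-coding genes only, compared libraries only, a replicate block and each library left out. Fits without the ICM 1-2 and siBANF1 libraries were chosen after seeing the data. Figures and summaries were made in Python 3.11.15 (pandas 2.3.3, scipy 1.17.1, matplotlib 3.10.9).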

Additional observations from a re-analysis of the deposited data

Results flagged for a closer look

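CDKN2D differed between the 2 pairs of ICM libraries: the log2 difference of ICM 3-4 from ICM 1-2 was 1.17 (edgeR quasi-likelihood test, adjusted p = 0.035), with 13.7 and 14.7 CPM against 4.30 and 7.54. The difference was tested in the fit to all 14 libraries. The 2 pairs carry the same treatment label, and their library set and their small RNA shares differ in the same way, so set and treatment state cannot be told apart.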

How the results depend on the processing

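Of 580 values of single members under the alternatives, 512 kept their direction and side of the threshold, 20 lost a call, 13 gained one and 35 changed sign. In ICM 1-2 against WT, 2 members were called; a minimum mean of 1 CPM, which leaves out CDKN1C, gave 1, the fit to the compared libraries gave 0, the same fit with the replicate block gave 1, and leaving out each library gave 1 to 2. In ICM 3-4 against WT, 4 became 2 to 3 with each library left out. For siHMGB2, 0 became 1 with DESeq2, 1 with the compared libraries only and 3 with those libraries and the replicate block (CDKN2A, CDKN2B and CDKN2D, where 15.9% of all genes were called). For the libraries labelled siSRRM2, 0 became 2 with no filter beyond 1 count and 1 with DESeq2. Between the ICM pairs, 1 became 0 with the compared libraries only and 0 to 2 with each library left out. The cause was not tested. Leaving out a library leaves 1 sample in its arm, which is assumed to vary like the other groups.

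Signs turned under these settings, with none of the values called. Scaling by total counts gave CDKN1B 0.11 in ICM 3-4 against WT and CDKN2B 0.01 between the ICM pairs. CDKN2D in siCTCF was 0.00 by relative log expression, with a minimum of 1 CPM and with DESeq2. With each library left out, log2 fold changes ran as follows. Against WT, CDKN2B ran from -0.10 to 0.34 in ICM 1-2 and from -0.29 to 0.32 in ICM 3-4, and in siHMGB2 CDKN1B ran from -0.20 to 0.06 and CDKN2C from -0.24 to 0.18. In the libraries labelled siSRRM2, CDKN1B ran from -0.41 to 0.00 and CDKN2D from -0.56 to 0.14. In those labelled siBANF1, CDKN1A ran from -1.36 to 1.53, CDKN1B from -0.60 to 0.04, CDKN1C from -0.02 to 0.26, CDKN2A from -0.90 to 0.09, CDKN2C from -1.59 to 0.06 and CDKN2D from -0.65 to 0.08. In siCTCF, CDKN1A ran from -0.26 to 0.11, CDKN1B from -0.04 to 0.08, CDKN1C from -1.54 to 0.59, CDKN2A from -0.81 to 0.85, CDKN2B from -0.34 to 0.41, CDKN2C from -0.18 to 0.48 and CDKN2D from -0.18 to 0.16. Between the ICM pairs, CDKN2A ran from -1.20 to 0.30 and CDKN2B from -0.42 to 0.19.

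The labels' replicate numbers were not taken as pairs in the fit to all libraries. The replicate block was fitted to the compared libraries only. Against the same fit without it, the count of all genes called went from 1668 to 2443 for siHMGB2, from 0 to 1183 for ICM 1-2 against WT, from 0 to 34 for the libraries labelled siSRRM2 and from 0 to 1 for those labelled siBANF1. Deviations of same-numbered libraries correlated at 0.20 for siHMGB2, -0.15 for ICM 1-2 against WT and 0.85 for the libraries labelled siBANF1. ICM 3-4 share no numbers with siCTCF; matched lower with lower number, 4 genes were called and the correlation was 0.74. The counts of all genes called moved by over 1.5 times in the fits to the compared libraries only, from 0 to 1668 for siHMGB2, from 2580 to 0 for ICM 1-2 against WT, from 34 to 0 for the libraries labelled siSRRM2 and from 3739 to 136 between the ICM pairs. With no filter beyond 1 count they were 3883 for ICM 1-2 against WT and 94, 814 and 161 for siHMGB2 and the labels siSRRM2 and siBANF1. DESeq2 called 4010 for ICM 1-2 against WT. For the label siSRRM2, scaling by total counts gave 1, a minimum mean of 1 CPM 54 and protein-coding genes 58; protein-coding genes gave 1452 for ICM 1-2 against WT. With each library left out they ran from 512 (without WT 2) to 3482 for ICM 1-2 against WT, from 1806 (without WT 2) to 2471 for ICM 3-4 against WT, from 1090 (without ICM 3) to 5889 (without ICM 2) between the ICM pairs, from 1 to 51 for the libraries labelled siSRRM2, and from 0 to 54 (without siBANF1 2) for those labelled siBANF1. Without the ICM 1-2 and siBANF1 libraries, 4, 0 and 0 members were called in ICM 3-4 against WT, siHMGB2 and siCTCF, the same numbers as with all libraries, while all genes called went from 5796 to 10449 in ICM 3-4 against WT and from 0 to 261 in siHMGB2. Counts of 1 to 6 limit CDKN1C in ICM-treated cells.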
